A study of Mus musculus with 7 samples.

Results

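The nuclear genes of the mitochondrial respiratory chain and ATP synthase were examined in mouse lung tumors that overexpress EZH2 and in normal mouse lung. Members were all genes whose symbol began with Nduf, with Sdh followed by a, b, c or d, with Uqcr, with Atp5, or with Cox4 to Cox8. Pseudogenes were to be left out, and 0 were found. The rule gave 94 of 22447 genes, and 92 of them passed the minimum of 1 FPKM in at least 2 of the 7 libraries. Cox7b2 and Cox8c, isoforms of cytochrome c oxidase subunits, stayed below 0.240 FPKM in every library and were not tested. No gene of the mitochondrial genome was among the symbols in the files, so all members are encoded in the nucleus. No measured value entered the rule.

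The respiratory chain passes electrons from NADH and succinate to oxygen, and the proton gradient that this builds drives ATP synthase. Complex I oxidizes NADH, complex II oxidizes succinate, complex III passes electrons from ubiquinol to cytochrome c, complex IV reduces oxygen, and complex V is the ATP synthase. Each complex apart from II joins nuclear subunits with subunits made inside the mitochondrion, and several complex IV subunits exist as a widely expressed form and a form of muscle, lung or other tissues. The members were placed in 7 core and 29 supernumerary subunits of complex I, 4 subunits of complex II, 8 of complex III, 11 widely expressed and 8 tissue-restricted subunits of complex IV, 15 of complex V, and 12 assembly factors and other genes.

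Messenger RNA levels were read in 7 libraries. The tumor group held 3 lung tumors from EZH2-overexpressing mice (OE tumors), and the first control group 2 normal lungs from mice with the same overexpression (OE normal lung). The other control group held 2 lungs from wild type mice (WT lung). EZH2 places methyl groups on histone H3 as the catalytic part of a Polycomb complex. The labels do not give the promoter that drives EZH2, the strain, the age, or whether each library is a separate animal, and where it is not the p-values reflect spread that may be technical. They call the source lung tissue but also describe tumor pieces grown in dishes, so it is not known here which of these gave the tumor RNA.

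Values are FPKM, fragments scaled to transcript length and to library size, which is a level per length. Log2 differences are on the log2(FPKM + 1) scale with the standard error (SE) from limma, and this scale understates changes of low genes. A gene was called at a Benjamini-Hochberg adjusted p under 0.05 over all 14057 genes tested. Ezh2 stood at 8.48, 23.5 and 22.6 FPKM in tumors 1 to 3, at 10.2 and 11.5 in OE normal lung and at 3.72 and 2.58 in WT lung. The sum of FPKM was 405166 to 503550 per library, and ratios of low values placed relative depth within a range of 1 to 1.87. Tumors 2 and 3 resembled each other (Pearson r = 0.970, taken over 14057 genes that are no independent replicates) more than either resembled tumor 1 (0.897 and 0.894). Tumors 2 and 3 and OE normal lung 2 had Xist between 60.6 and 74.2 FPKM, while the other libraries had Eif2s3y between 27.4 and 30.7 FPKM. The sex of the animals thus differed within the tumors and within OE normal lung, and tumor 1 differed in it from the other tumors. Both WT lungs had Eif2s3y, so tumors 2 and 3 differed in sex from all WT lungs. The tumors also differed from normal lung in markers of whole cell types: all 8 endothelial and all 8 ciliated cell genes fell in tumors against either normal group. In bulk samples fewer cells of a type and less RNA per cell cannot be told apart.

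The members' FPKM summed to 8714, 9775 and 10858 in tumors 1 to 3, to 7664 and 8542 in OE normal lung and to 7804 and 8487 in WT lung. By this sum each tumor lay above every normal lung, with tumor 1 closest to them. As a share of all FPKM the members took 1.73%, 2.02% and 2.33% in tumors 1 to 3, 1.89% and 2.03% in OE normal lung and 1.71% and 1.89% in WT lung. By share tumor 3 alone lay above every normal lung, and tumor 1 lay below all but WT lung 1. With small RNA genes left out of the total, the shares were 2.05%, 2.38% and 2.56% in tumors 1 to 3. They were then 2.01% and 2.25% in OE normal lung and 2.05% and 2.26% in WT lung. On that base tumors 2 and 3 lay above every normal lung and tumor 1 within their range. The median member had a mean level of 69.9 FPKM over the 7 libraries. With all 3 tumors in the test most members were not called, though many stood clearly above or below normal lung in tumors 2 and 3. The largest differences were in tissue-restricted subunits of complex IV, described first.

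Complex IV carries paired subunits, and 4 of the 6 tissue-restricted forms tested fell in tumors while their widely expressed partners did not. Cox8b, the heart and muscle form of subunit VIII, was at 21.0 and 42.1 FPKM in OE normal lung and at 16.6 and 30.9 FPKM in WT lung, and was listed at 0 in all 3 tumors. A 0 in these files need not mean that no reads were present: Sftpc, an alveolar type 2 gene, was also listed at 0 in tumors 2 and 3, with 35944 FPKM in tumor 1 and 10578 to 15915 FPKM in normal lungs. Whether these values of 0 are failed estimates was not tested. No fold change is given for Cox8b against a group listed at 0, and the adjusted p in limma was 3.63e-04 against OE normal lung and 4.03e-04 against WT lung. Its partner Cox8a stood at 258, 266 and 322 FPKM in tumors 1 to 3 and at 246 to 277 FPKM in the 4 normal lungs. The Cox8a difference of 0.18 (SE 0.14) against OE normal lung and 0.08 (SE 0.14) against WT lung was not called.

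Cox7a1, the heart and muscle form of subunit VIIa, was at 4.09, 4.60 and 4.51 FPKM in tumors, at 29.4 and 51.5 FPKM in OE normal lung and at 25.3 and 35.5 FPKM in WT lung. It fell by 2.89 (SE 0.26, limma adjusted p = 6.46e-04) against OE normal lung and fell by 2.52 (SE 0.26, adjusted p = 0.00101) against WT lung on the log2 scale. Its share of the summed FPKM of Cox7a1 and Cox7a2 went from 26.1% to 40.5% in normal lungs to 4.66% to 7.09% in tumors. Cox7a2, the widely expressed form, lay between 60.3 and 83.7 FPKM in tumors and between 65.4 and 76.4 FPKM in normal lungs, and these ranges overlapped.

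Cox4i2, the subunit IV form known from lung and from cells that sense oxygen, was at 6.84, 5.61 and 6.98 FPKM in tumors. It was at 39.5 and 45.0 FPKM in OE normal lung and at 56.0 and 66.0 FPKM in WT lung, so no tumor came near a normal lung. It fell by 2.53 (SE 0.14, limma adjusted p = 2.89e-04) against OE normal lung and fell by 3.05 (SE 0.14, adjusted p = 1.65e-04) against WT lung. Cox4i1, the widely expressed subunit IV and by mean level the most abundant member, stood at 350, 514 and 580 FPKM in tumors against 291 to 317 FPKM in normal lungs. Every tumor lay above every normal lung for Cox4i1, yet its difference of 0.66 (SE 0.23, adjusted p = 0.0647) against OE normal lung was not called. The share of Cox4i2 in the pair was 1.08% to 1.92% in tumors, 12.0% and 12.9% in OE normal lung, and 15.7% and 17.2% in WT lung.

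Ndufa4l2, a paralog of Ndufa4 known to respond to hypoxia, was at 6.45, 6.71 and 8.23 FPKM in tumors. It was at 21.5 and 19.0 FPKM in OE normal lung and at 24.6 and 33.2 FPKM in WT lung. It fell by 1.39 (SE 0.18, limma adjusted p = 0.0020) against OE normal lung and fell by 1.87 (SE 0.18, adjusted p = 7.10e-04) against WT lung, with no overlap of groups. Ndufa4, now counted as a complex IV subunit, stood at 263, 318 and 345 FPKM in tumors and at 226 to 269 FPKM in normal lungs, and was not called.

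The remaining tissue forms did not follow. Cox6a2, the heart and muscle form of subunit VIa, was at 3.38 FPKM in tumor 1 but at 63.4 and 74.4 FPKM in tumors 2 and 3, above all 4 normal lungs (28.7 to 58.7 FPKM). The groups overlapped, and its difference of -0.63 (SE 1.24) against OE normal lung was not called; without tumor 1 it was 0.70 with adjusted p = 0.130. Cox6b2, a form known from testis, ranged from 3.35 to 11.6 FPKM in tumors and from 4.99 to 12.2 FPKM in normal lungs and was not called. Cox6a1, the widely expressed partner of Cox6a2, kept to 208 to 254 FPKM in tumors and 246 to 301 FPKM in normal lungs.

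**Figure D1:**
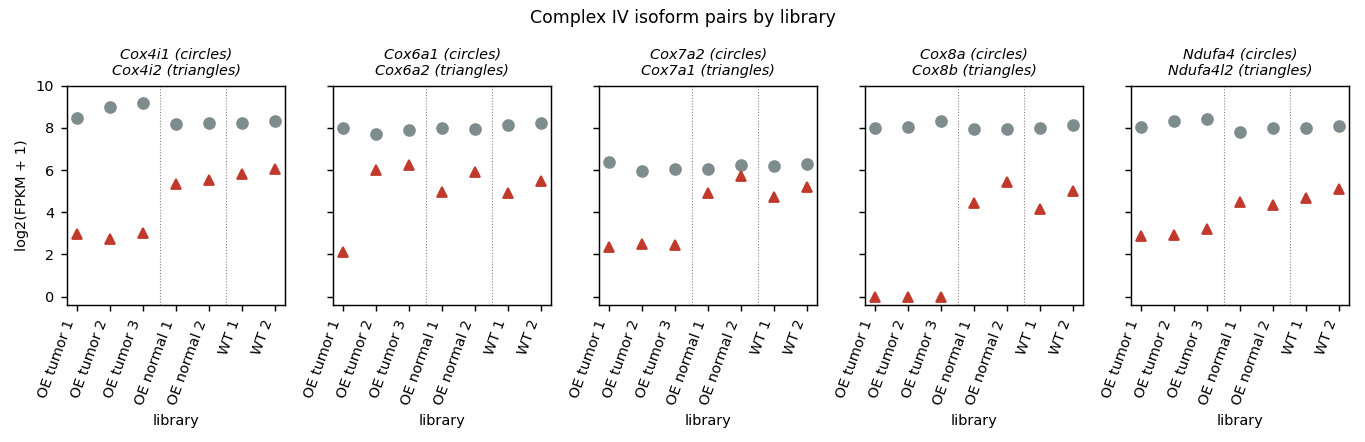
Widely expressed (circles) and tissue-restricted (triangles) subunits of complex IV in each of the 7 libraries, as log2(FPKM + 1). Cox4i2, Cox7a1, Cox8b and Ndufa4l2 were low in all 3 tumors, while Cox6a2 was low in tumor 1 alone, where it stood at 3.38 FPKM.

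Heart markers moved with these forms. The summed FPKM of 12 heart and striated muscle genes, among them Myl7 and Actc1, was 4.63, 5.73 and 9.37 in tumors 1 to 3, 793 and 1917 in OE normal lung, and 830 and 1471 in WT lung. All 12 fell in tumors against either normal group, and Myl7, Mb and Ckmt2 were listed at 0 in at least 1 library. Among the normal lungs the marker sum, Cox8b, Cox7a1 and Cox6a2 were each higher in OE normal lung 2 and WT lung 2 than in OE normal lung 1 and WT lung 1, whereas Cox4i2 and Ndufa4l2 were higher in both WT than in both OE normal lungs. Of 11 smooth muscle and pericyte genes 8 fell and 1 rose in both comparisons, with sums of 111 to 438 FPKM in tumors and 359 to 678 FPKM in normal lungs. The highest tumor sum was that of tumor 1, where Acta2 alone gave 313 FPKM, against 26.8 and 36.9 FPKM in tumors 2 and 3. In tumors 2 and 3 Cox6a2 was high while the heart marker sum was near 0. Its log2 difference from the mean of the normal lungs was 0.71 in tumor 2 and 0.93 in tumor 3. Cox6a2 lies on chromosome 7, where the median difference of other genes was 0.38 in tumor 2 and 0.34 in tumor 3. The part that heart muscle, smooth muscle and pericytes, or the chromosome, play in the isoform differences was not tested.

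Promoter sequences are shown for 3 of these subunits, of which only Cox8a and Cox8b form a pair. Whether the letters bear on the tumor values was not tested. Windows run from 250 bases before to 30 bases after the start, on the minus strand of GRCm38.p6, from RefSeq. Capitals mark matches on either strand to the palindromic NRF1 motif, the ETS core CCGGAAG, the YY1 motif AAGATGGC, the E-box CAGCTG and the TATA letters TATAAA. NRF1 and ETS factors are known regulators of respiratory genes. The windows are Cox6a1 at chr5:115348929-115349208, Cox8a at chr19:7217587-7217866 and Cox8b at chr7:140900417-140900696.
Cox6a1: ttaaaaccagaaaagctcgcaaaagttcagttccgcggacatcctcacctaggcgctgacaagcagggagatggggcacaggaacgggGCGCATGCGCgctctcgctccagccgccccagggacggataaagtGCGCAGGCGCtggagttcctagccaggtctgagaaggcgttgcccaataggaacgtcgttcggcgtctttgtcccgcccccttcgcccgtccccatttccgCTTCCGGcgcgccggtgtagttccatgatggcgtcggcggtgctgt
Cox8a: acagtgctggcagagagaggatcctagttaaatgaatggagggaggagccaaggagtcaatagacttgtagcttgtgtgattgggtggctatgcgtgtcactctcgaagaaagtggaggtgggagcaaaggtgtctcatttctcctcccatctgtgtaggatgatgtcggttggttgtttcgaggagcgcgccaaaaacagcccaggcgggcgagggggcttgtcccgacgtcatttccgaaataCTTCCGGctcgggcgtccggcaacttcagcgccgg
Cox8b: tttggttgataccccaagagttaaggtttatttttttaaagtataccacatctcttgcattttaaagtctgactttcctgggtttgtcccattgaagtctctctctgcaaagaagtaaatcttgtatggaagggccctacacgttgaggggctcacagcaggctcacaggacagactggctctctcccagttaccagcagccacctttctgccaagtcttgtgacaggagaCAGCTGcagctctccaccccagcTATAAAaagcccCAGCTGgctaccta
The Cox6a1 window held the NRF1 letters at 2 places and the ETS core at 1, the Cox8a window held the ETS core, and the Cox8b window held neither but held the E-box at 2 places and the TATA letters.

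Windows were found for 78 of the 94 members, 84 windows in all, and set beside the 32851 windows of all genes at the same length. The NRF1 motif was in 22.6% of member windows and 4.41% of all windows. The ETS core was in 22.6% and 8.45%, and the YY1 motif in 5.95% and 2.29%. The E-box was in 7.14% and 14.9%, and TATAAA in 9.52% and 13.1%. Of the 4 tissue-restricted subunits with a window, 0 held the NRF1 or ETS letters, 1 held the E-box and 2, Cox8b and the untested Cox7b2, held TATAAA. At the shares of all windows, 0 of 4 with NRF1 or ETS letters does not set these genes apart. A match is a description of letters and not of binding.

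Against OE normal lung, 6 of the 92 members rose in tumors and 6 fell, where 13.1% of all genes rose and 24.9% fell (38.1% called in all). Both counts lie below that background. The 6 that rose were Atp5f1, Ndufaf1, Atp5e, Ndufa2, Cox7a2l and Ndufb5. Beside the 4 tissue-restricted forms, Sdhb and Ndufa1 fell. In 37 members every tumor was above both OE normal lungs (25.0% of all genes) and in 10 every tumor was below them (35.9%).

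Against WT lung, 11 members rose and 5 fell, where 15.0% of all genes rose and 23.2% fell (38.2% called in all). The same 4 tissue forms and Ndufa1 fell. Ndufa10, Atp5c1, Ndufa3, Cox7a2l, Atp5f1, Atp5e, Ndufaf1, Atp5o, Ndufb2, Ndufc1 and Ndufs6 rose, by 0.37 to 1.12 on the log2 scale. No overlap was found in 35 members with all tumors higher (28.9% of all genes) and in 13 with all tumors lower (35.0%). The 2 comparisons share the tumor libraries, so their calls are not independent of each other.

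Many of these rises were near the threshold. Over 17 alternatives for each gene and comparison, the call of Atp5f1 was lost in 14 against OE normal lung and in 12 against WT lung, and that of Atp5e in 12 and 5. Against OE normal lung the calls of Ndufa2 and Ndufb5 were lost in 11 and 10. Against WT lung those of Atp5c1, Ndufa3 and Ndufa10 were lost in 11, 11 and 6. Ndufaf1 lost its call in 6 and 3 and Cox7a2l in 2 and 0. Among the falls, Sdhb lost its call against OE normal lung in 9, Ndufa1 in 9 against OE normal and 3 against WT lung, and the 4 tissue-restricted forms in 0. Leaving out tumor 2, or leaving out tumor 3, ended all of the calls named here apart from those of Cox7a2l, the 4 tissue forms, and Ndufaf1 and Ndufa1 against WT lung. None of these differences changed sign.

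OE normal lung and WT lung did not differ in any member by this test. Of 92 members 0 were called and 0.0% of all genes, and at an unadjusted p under 0.05 there were 2 members, Cox4i2 and Ndufa4l2, and 1208 genes. Cox4i2 was lower in OE normal lung by 0.52 (SE 0.16, limma adjusted p = 0.399) and Ndufa4l2 by 0.48 (SE 0.19, adjusted p = 0.565). In 11 members both OE normal lungs were above both WT lungs (29.6% of all genes) and in 15 both were below (23.1%). The median log2 difference of the members was 0.01, with a median SE of 0.18, so small differences were not detectable with these libraries. Without tumor 1, which lowers the shared spread, 2.06% of all genes and 0 members were called.

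**Figure D2:**
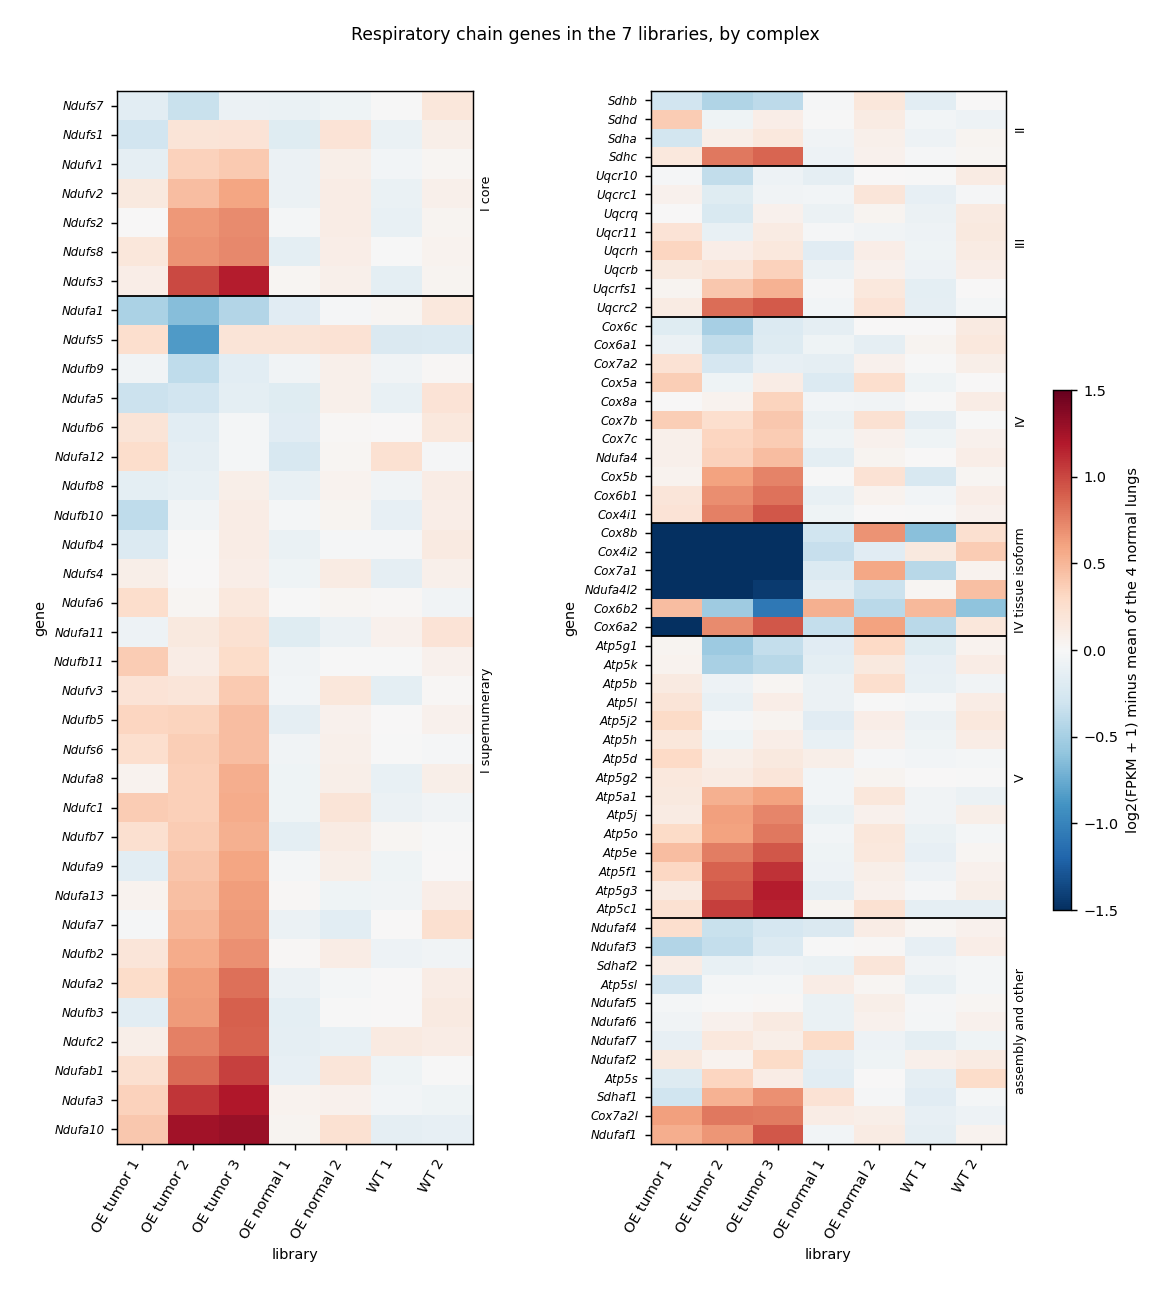
Each of the 92 members in each library, as log2(FPKM + 1) minus the mean of the 4 normal lungs. Members are grouped by complex and ordered within it by the mean of tumors 2 and 3, and colors end at 1.5 in either direction. Tumors 2 and 3 carried similar patterns with both raised and lowered subunits in every complex, and tumor 1 was paler apart from the tissue-restricted subunits of complex IV.

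Complex I had the most members and the largest median difference of the complexes. Its 7 core subunits, which hold the flavin and the iron-sulfur clusters, had a median log2 difference of 0.39 against OE normal lung and 0.41 against WT lung, and 0 of 7 were called. Ndufs3 was at 55.1, 102 and 117 FPKM in tumors 1 to 3 against 46.3 to 54.0 FPKM in normal lungs. Tumor 1 was close to normal lung and tumors 2 and 3 were far above it, and the difference of 0.81 (SE 0.32, adjusted p = 0.0901 in limma) against WT lung was not called. Ndufv1, which binds NADH, was at 39.8 FPKM in tumor 1, below all normal lungs (41.4 to 46.7 FPKM), and at 56.0 and 57.8 FPKM in tumors 2 and 3, above them. Ndufs7 was at 60.1, 53.1 and 63.0 FPKM in tumors against 62.9 to 75.7 FPKM in normal lungs, where only tumor 3 reached the lowest normal lung.

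Among the 29 supernumerary subunits, which surround the core, 2 rose and 1 fell against OE normal lung and 5 rose and 1 fell against WT lung. Ndufa10 was at 46.7, 85.5 and 87.5 FPKM in tumors and at 31.8 to 41.3 FPKM in normal lungs. It rose by 1.12 (SE 0.28, limma adjusted p = 0.0245) against WT lung, while its 0.85 against OE normal lung was not called (adjusted p = 0.0575). Ndufa3 was at 162, 267 and 294 FPKM in tumors against 122 to 132 FPKM in normal lungs, and rose by 0.93 (SE 0.26, adjusted p = 0.0344) against WT lung. Ndufb5 had nearly equal tumors, with 49.6, 50.1 and 54.5 FPKM against 35.7 and 41.3 FPKM in OE normal lung, and rose by 0.41 (SE 0.11, adjusted p = 0.0341).

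Ndufa1 was the only member outside complex IV that fell in both comparisons. It was at 53.6, 47.8 and 55.0 FPKM in the 3 tumors, against 66.1 and 73.6 FPKM in OE normal lung and 76.5 and 83.8 FPKM in WT lung. It fell by 0.42 (SE 0.12, limma adjusted p = 0.0375) against OE normal lung and fell by 0.61 (SE 0.12, adjusted p = 0.0102) against WT lung. The gene lies on the X chromosome with 2 other members, Cox7b and Ndufb11, and every tumor lay below every normal lung.

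Complex II showed its subunits apart. Sdhb, the iron-sulfur subunit, was at 58.2, 51.5 and 53.8 FPKM in tumors and at 69.8 and 79.9 FPKM in OE normal lung, and fell by 0.45 (SE 0.12, limma adjusted p = 0.0316). Against WT lung, at 63.7 and 71.3 FPKM, its difference of -0.30 was not called (adjusted p = 0.0988). Sdha, the flavoprotein, ranged from 56.2 to 76.6 FPKM in tumors and from 65.1 to 72.4 FPKM in normal lungs. Sdhc, a membrane anchor, was at 65.7, 102 and 109 FPKM in tumors against 55.8 to 61.4 FPKM in normal lungs, with no overlap and no call (adjusted p = 0.0787 against OE normal lung). Sdhd, the other anchor, was at 64.2 FPKM in tumor 1 and at 46.9 and 52.9 FPKM in tumors 2 and 3, so tumor 1 was the highest tumor for Sdhd and the lowest for Sdhc.

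None of the 8 complex III subunits was called in limma in either tumor comparison, where 0 and 1 of them had an unadjusted p under 0.05 against OE normal and WT lung. Uqcrc2, a core protein, was at 62.8, 104 and 110 FPKM in tumors and at 52.5 to 66.6 FPKM in normal lungs. Uqcrc1, its core partner, was at 66.8, 56.1 and 61.4 FPKM in tumors and at 58.4 to 72.1 FPKM in normal lungs. Tumors 2 and 3 thus stood above every normal lung for Uqcrc2, whereas for Uqcrc1 tumor 3 lay within the normal range and tumor 2 below it. Uqcrfs1, the Rieske iron-sulfur protein, was at 53.4, 69.2 and 75.3 FPKM in tumors and at 47.1 to 58.2 FPKM in normal lungs.

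Among the 11 widely expressed complex IV subunits 0 were called in limma, with 2 and 5 at an unadjusted p under 0.05 against OE normal and WT lung. Cox6b1 was at 228, 325 and 354 FPKM in tumors against 185 to 216 FPKM in normal lungs, with no overlap. Cox5a was highest in tumor 1, at 128 FPKM, and was at 94.6 and 107 FPKM in tumors 2 and 3 against 85.5 to 118 FPKM in normal lungs. Cox6a1, described above, was the lowest in tumor 2 at 208 FPKM.

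In complex V 2 of 15 subunits rose against OE normal lung and 4 against WT lung, and 0 fell. Atp5e, the epsilon subunit of the central stalk, was at 332, 409 and 458 FPKM in the 3 tumors, against 230 and 269 FPKM in OE normal lung and 221 and 245 FPKM in WT lung. It rose by 0.67 (SE 0.18, limma adjusted p = 0.0289) and 0.77 (SE 0.18, adjusted p = 0.0187). Atp5f1, subunit b of the peripheral stalk, was at 92.2, 138 and 159 FPKM in tumors against 70.3 to 79.2 FPKM in normal lungs, and rose by 0.75 (SE 0.24, adjusted p = 0.0496) against OE normal lung and 0.77 (SE 0.24, adjusted p = 0.0462) against WT lung. Atp5c1, the gamma subunit that turns in the motor, was at 110, 193 and 209 FPKM in tumors and rose by 0.94 (SE 0.28, adjusted p = 0.0421) against WT lung, at 85.5 and 85.1 FPKM. The catalytic beta subunit Atp5b did not follow, with 299, 257 and 276 FPKM in tumors against 251 to 324 FPKM in normal lungs.

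The 3 genes for subunit c of the ATP synthase ring, which encode the same mature protein, differed from each other. Atp5g3 was at 229, 399 and 471 FPKM in tumors 1 to 3 against 190 to 220 FPKM in normal lungs. Atp5g2 was at 205, 200 and 208 FPKM in tumors against 179 to 189 FPKM. Atp5g1 was at 71.4 FPKM in tumor 1 and at 47.4 and 53.8 FPKM in tumors 2 and 3, against 60.9 to 85.4 FPKM. So tumors 2 and 3 were high for Atp5g3, slightly above normal lung for Atp5g2 and low for Atp5g1, and none of the 3 was called in either comparison.

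Of the 12 assembly factors and other genes, Cox7a2l and Ndufaf1 rose in both comparisons and 0 fell. Cox7a2l, which helps form supercomplexes of the chain, was at 182, 205 and 204 FPKM in the 3 tumors, against 128 and 126 FPKM in OE normal lung and 108 and 112 FPKM in WT lung. All 3 tumors were close to each other, and it rose by 0.63 (SE 0.11, limma adjusted p = 0.00705) and 0.83 (SE 0.11, adjusted p = 0.00267). Ndufaf1, a complex I assembly factor, was at 8.83, 9.64 and 11.8 FPKM in tumors against 5.11 to 6.30 FPKM in normal lungs. It rose by 0.67 (SE 0.16, adjusted p = 0.020) and 0.76 (SE 0.16, adjusted p = 0.0135).

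The median log2 difference of all 92 members was 0.17 against OE normal lung as deposited, 0.31 after median-of-ratios scaling, 0.13 after quantile normalization and -0.04 after rescaling to TPM. Against WT lung the 4 values were 0.16, 0.25, 0.16 and 0.07. All genes tested moved as well, with medians of -0.11, 0.01, 0.13 and -0.33 against OE normal lung and -0.06, 0.01, 0.11 and -0.16 against WT lung. Relative to all genes the members' median was thus 0.27 as deposited, 0.29 with median-of-ratios scaling and 0.29 as TPM against OE normal lung, but 0.00 after quantile normalization. Against WT lung it was 0.23, 0.24, 0.23 and 0.04. Median-of-ratios and TPM scaling divide all genes of a library by the same factor, so values relative to all genes could hardly change with them. Quantile normalization matches whole distributions, so it also removes differences that depend on level.

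Median-of-ratios scaling divides each library by the median ratio of its genes to their geometric mean over libraries, and it moved tumors 1, 2 and 3 by 0.01, 0.15 and 0.18 on the log2 scale relative to the normal lungs. Against OE normal lung all of these medians were higher after it, and went from 0.30 to 0.44 in complex I, 0.26 to 0.40 in widely expressed complex IV, 0.17 to 0.31 in complex III, 0.15 to 0.29 in complex V, 0.03 to 0.17 in complex II and 0.03 to 0.14 in assembly genes. Against WT lung they went from 0.32 to 0.41, 0.24 to 0.33, 0.10 to 0.19, 0.21 to 0.30, 0.10 to 0.19 and 0.02 to 0.10 in the same sequence. As TPM, the medians against OE normal lung of complexes II, III and V and of the assembly genes were below 0 (-0.20, -0.06, -0.08 and -0.16).

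The calls after median-of-ratios scaling were 11 higher and 4 lower against OE normal lung (16.6% and 23.2% of all genes, 39.9% in all) and 11 higher and 5 lower against WT lung (16.9% and 22.2%, 39.1% in all). Against WT lung the number higher was the same but not the genes: Atp5f1 (limma adjusted p = 0.0540) and Ndufb2 (adjusted p = 0.0557) were no longer called, and Ndufb5 and Cox7b became called. The falls of Cox4i2, Cox7a1, Cox8b and Ndufa4l2 were called under both scalings. The falls of Sdhb (limma adjusted p = 0.0822) and Ndufa1 (adjusted p = 0.128) against OE normal lung were not called after scaling, while that of Ndufa1 against WT lung was (adjusted p = 0.0205). Ndufa3, Ndufb7, Ndufb11, Ndufc1 and Ndufs6, all of complex I, were called higher against OE normal lung only after scaling.

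**Figure D3:**
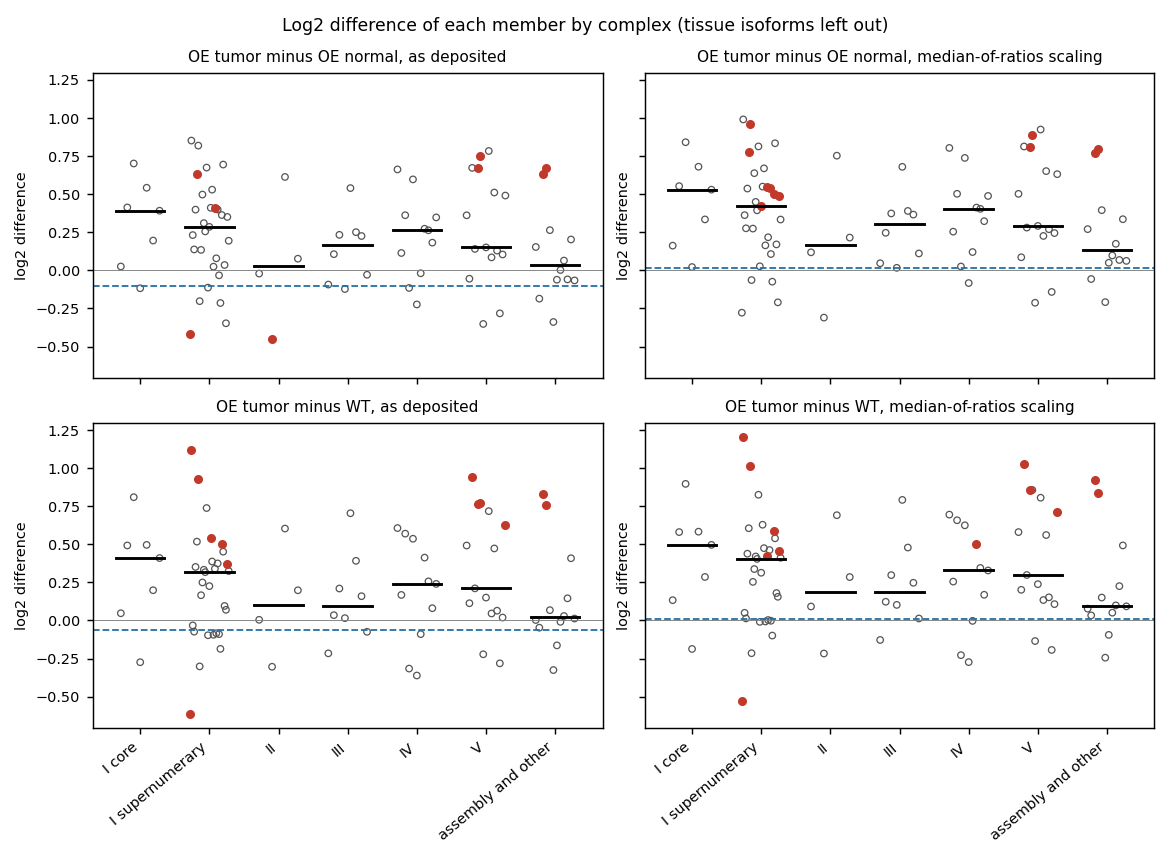
Log2 difference of each member other than the tissue-restricted subunits, in tumors against OE normal lung (top) and WT lung (bottom), as deposited (left) and after median-of-ratios scaling (right). Red points were called, black lines are medians of each class and the dashed line is the median of all genes tested, which moved from -0.11 to 0.01 in the top row.

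Among other genes the difference went with the level. Against OE normal lung the 30 members with a mean of 50 to 100 FPKM had a median log2 difference of 0.22 and the 703 other genes in that range 0.13. From 100 to 200 FPKM it was 0.27 in 20 members and 0.11 in 274 other genes, and from 200 FPKM it was 0.23 in 13 members and 0.41 in 268 other genes. Other genes below 5 FPKM had a median of -0.35. The members thus lay above other genes of like level in the first 2 ranges and below them in the highest, and this was not tested.

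Within each complex, some subunits were higher and others lower than normal lung in tumors 2 and 3, and which they were went with the chromosome of the gene. Chromosomes were taken by symbol from RefSeq (GRCm38.p6), names only, for all 92 members tested. For each tumor and chromosome the median log2 difference from the mean of the 4 normal lungs was taken over 9518 genes that are not members and had a mean of at least 5 FPKM. In tumors 2 and 3 these medians were between 0.19 and 0.46 on chromosomes 1, 2, 7, 8 and 12 and between -0.43 and -0.24 on chromosomes 4, 5, 9, 10, 11, 14, 15 and X. On the other 7 chromosomes they were between -0.05 and 0.15. In tumor 1 the medians of all 20 chromosomes were between -0.02 and 0.10, and each normal lung set against the other 3 gave medians between -0.03 and 0.04. The limit of 0.15 in either direction that separates these sets of chromosomes was chosen after the medians were seen. DNA copy number was not measured, and its part in these values was not tested.

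**Figure D4:**
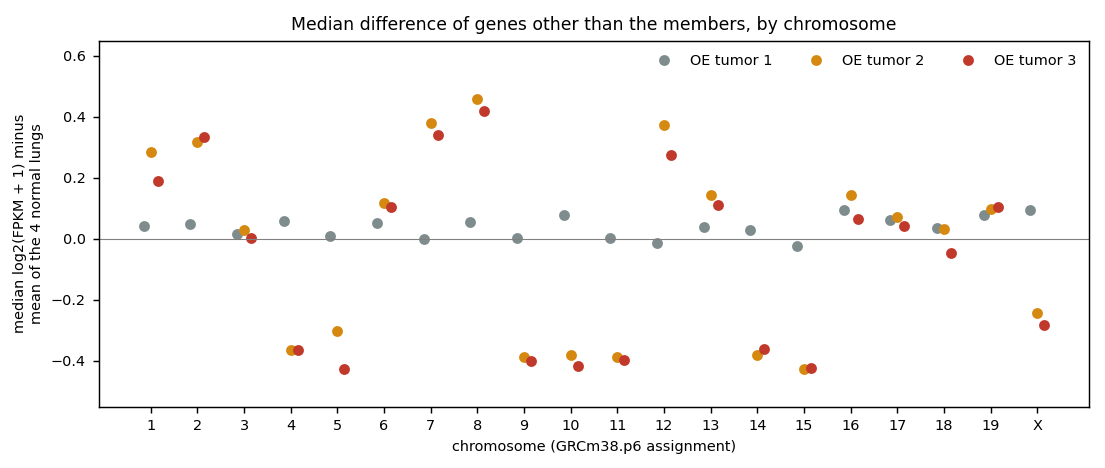
Median log2(FPKM + 1) difference from the 4 normal lungs of genes other than the members, by chromosome and tumor. Tumors 2 and 3 shared raised and lowered chromosomes, down to -0.43 and up to 0.46, while tumor 1 stayed between -0.02 and 0.10.

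The members followed the other genes of their chromosomes in tumors 2 and 3. Across the 86 members other than the tissue-restricted subunits, the difference of a member and the median of its chromosome had Pearson r = 0.748 and Spearman rho = 0.720 in tumor 2 and 0.711 and 0.670 in tumor 3, but 0.010 and 0.018 in tumor 1. These are descriptions across genes of 1 library each, and members of a chromosome share its median. The 24 members on raised chromosomes had medians of 0.11, 0.68 and 0.88 in tumors 1, 2 and 3. The 31 members on chromosomes in between had 0.12, 0.34 and 0.46, and the 31 on lowered chromosomes 0.17, -0.16 and 0.03. In tumor 2, 22 of the 24 on raised and 7 of the 31 on lowered chromosomes were above 0. In tumor 3 these were 23 and 16, and in tumor 1 they were 18 and 22.

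Median-of-ratios scaling divides all genes of a library by the same factor, so it could not remove this split. It could only move the level of all sets together. The medians in tumors 1, 2 and 3 were then 0.12, 0.82 and 1.06 on raised chromosomes, 0.13, 0.49 and 0.63 in between, and 0.19, -0.02 and 0.20 on lowered ones, where 22, 15 and 23 of the 31 members were above 0. With other genes of at least 50 FPKM in place of 5, an alternative chosen after seeing the data, raised chromosomes still lay above lowered ones in tumor 2 (0.38 to 0.83 against -0.40 to 0.07) and tumor 3 (0.44 to 0.90 against -0.40 to 0.06). The chromosomes in between then ran from 0.15 to 0.58 in tumor 2, overlapping the raised ones alone, and from -0.02 to 0.52 in tumor 3, overlapping both sets.

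**Figure D5:**
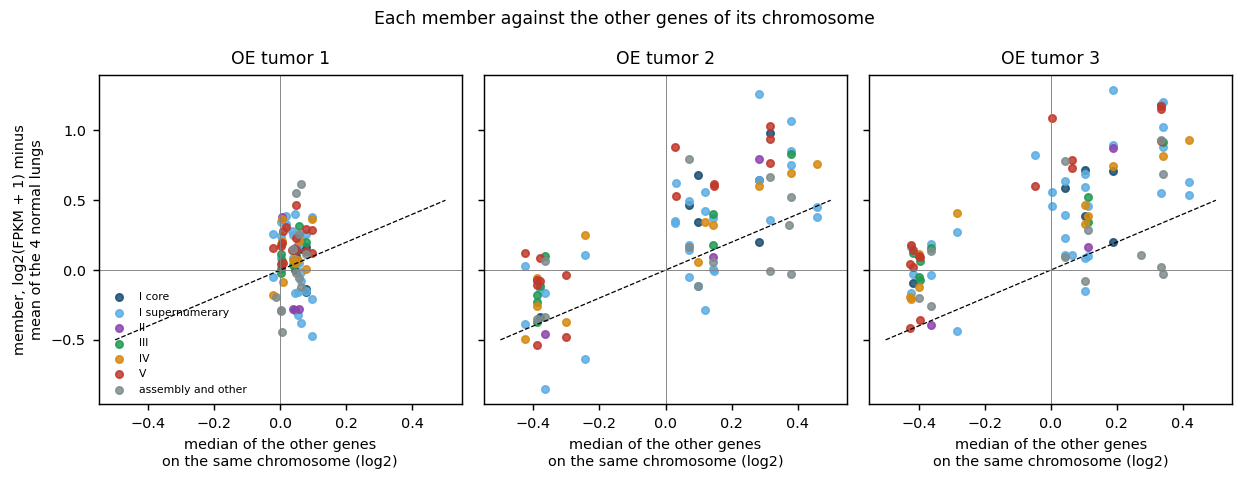
Each of the 86 members against the median of the other genes of its chromosome, in each tumor, as log2 differences from the 4 normal lungs; the dashed line marks equal values and colors mark the complex. In tumors 2 and 3 members of each complex lay higher where the chromosome median was higher (Pearson r = 0.748 and 0.711), and in tumor 1 they did not (0.010).

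Subunits of the same complex were split in this way. In complex V, Atp5c1, Atp5e and Atp5g3 on raised chromosomes had a median of 0.94 in tumor 2 and 1.15 in tumor 3. The 8 on lowered chromosomes, among them Atp5b, Atp5d, Atp5g1 and Atp5k, had -0.07 and 0.07. Atp5a1, Atp5f1, Atp5j and Atp5o in between had 0.61 and 0.76, though other genes of the chromosomes in between had medians of -0.05 to 0.15. In widely expressed complex IV, Cox4i1, Cox5b and Cox6b1 had 0.70 and 0.82, while Cox5a, Cox6a1, Cox6c, Cox7a2 and Cox7b had -0.25 and -0.12. Cox7c, Cox8a and Ndufa4 in between had 0.32 and 0.38. In complex III, Uqcrc2 had 0.83 and 0.92, while Uqcr10, Uqcr11, Uqcrc1, Uqcrh and Uqcrq had -0.18 and 0.07. Uqcrb and Uqcrfs1 in between had 0.29 and 0.43. In complex II, Sdhc had 0.79 and 0.88, Sdha in between 0.09 and 0.16, and Sdhb and Sdhd -0.26 and -0.15. In complex I, the 11 on raised chromosomes had 0.65 and 0.88, the 17 in between 0.34 and 0.46, and the 8 on lowered chromosomes -0.25 and -0.03. Assembly genes had 0.33 and 0.11 on raised chromosomes, 0.11 and 0.19 in between and -0.33 and -0.20 on lowered ones. In tumor 3 the raised set of assembly genes thus did not lie above the set in between. In tumor 1 the same sets lay between 0.05 and 0.23 in complexes I to V apart from Sdha, the complex II subunit in between, at -0.28.

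Differences remained after the chromosome median was subtracted. The SD of the 86 differences was 0.45 in tumor 2 and 0.43 in tumor 3, and after subtracting the chromosome median it was 0.30 in both. In tumor 1 it was 0.225 before and 0.227 after. After subtraction, 57, 64 and 77 of the 86 members were still above 0 in tumors 1, 2 and 3, with medians of 0.08, 0.26 and 0.46. With other genes of at least 50 FPKM as the base, 32, 42 and 59 members were above, with medians of -0.07, -0.01 and 0.14, so whether members exceeded their chromosome depended on the level of the genes they were set beside.

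The number of members called depended on tumor 1. Without it, 39 members rose and 9 fell against OE normal lung (26.7% and 41.7% of all genes, 68.4% in all) and 40 rose and 9 fell against WT lung (28.4% and 38.7%, 67.1% in all). Of the 39 that rose, 20 were on raised chromosomes, 19 on those in between and 0 on lowered ones. Of the 9 that fell, 6 were on lowered chromosomes, Ndufa4l2 among them, and the other 3, Cox4i2, Cox7a1 and Cox8b, were tissue-restricted forms on raised ones. Complex I alone then had 21 of 36 subunits higher against OE normal lung. The median SE of a member went from 0.16 with 3 tumors to 0.11 with tumors 2 and 3. The labels do not say whether tumors 2 and 3 came from separate animals, so this smaller spread may be technical.

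Genes around the chain were read from lists chosen with earlier results known, and counts are at the threshold over all genes, of which 13.1% rose and 24.9% fell against OE normal lung and 15.0% rose and 23.2% fell against WT lung. Of 15 genes of the outer membrane, protein import and prohibitins 6 rose against OE normal lung and 7 against WT lung, and 0 fell, among them Tomm20, an import receptor (0.90, limma adjusted p = 0.0350), and Phb2, a prohibitin (0.79, adjusted p = 0.00444). Of 17 genes of the mitochondrial ribosome 6 and 7 rose and 0 fell, Mrps2 by 0.93 (adjusted p = 0.0421) and Mrps18b by 0.86 (adjusted p = 0.00551) against OE normal lung. Among 14 regulators of mitochondrial biogenesis 2 and 4 rose and 0 fell. Yy1 rose in both comparisons (0.81 and 0.90) and Ppargc1a, a coactivator of respiratory genes, against WT lung (0.89, adjusted p = 0.0478). In tumors 1 to 3 Tomm20 was at 82.3, 145 and 138 FPKM and Mrps2 at 9.90, 17.9 and 19.5. Yy1 was at 28.5, 49.0 and 45.6 FPKM and Ppargc1a at 1.87, 4.34 and 3.82. Tumor 1 was closer to the other tumors for Phb2 (77.0, 92.3 and 93.2 FPKM) and Mrps18b (24.8, 31.3 and 32.3 FPKM). Alternatives and chromosomes are not given for these lists.

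Closer to the chain, 4 of 20 other chain and carrier genes rose and 1 fell in each comparison. Slc25a5, an ADP/ATP carrier, rose by 0.57 and 0.88, and Coq2, of ubiquinone synthesis, fell by 0.58 against OE normal lung and fell by 0.65 against WT lung. Of 18 genes of the citrate cycle and pyruvate dehydrogenase 1 rose and 2 fell in each. Idh2 rose by 0.80 and 0.72, and Ogdh fell by 0.89 against OE normal lung and fell by 0.91 against WT lung. Among 16 complex IV assembly genes 1 fell against OE normal lung, Taco1 (-0.74, limma adjusted p = 0.0399), and 1 rose against WT lung, Cox20 (0.82, adjusted p = 0.0433). The list medians were 0.42 and 0.46 for outer membrane and import genes, 0.17 and 0.27 for the ribosome, 0.34 and 0.29 for regulators, 0.20 and 0.28 for chain and carrier genes, 0.06 and 0.12 for the citrate cycle, and -0.03 and -0.01 for complex IV assembly. In OE normal against WT lung 0 genes of these lists were called.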

How the data were processed

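RNA sequencing was analysed in 7 mouse lung libraries. The deposited values are FPKM per gene symbol. The submitters' processing notes name TopHat2, TopHat and Cufflinks 2.0.0 as the authors' tools and mm9 as their build. For annotation, strand, normalization option and read totals the sources used here give nothing, so antisense and overlapping genes and reads shared with processed pseudogenes, which many of these genes have, could not be separated. Of 22474 rows, 27 with a date in place of a symbol were left out. A gene was kept if 2 or more libraries reached 1 FPKM, which left 14057 genes. They were tested on log2(FPKM + 1) with limma 3.58.1 in R 4.3.3 (mean-variance trend, 2-sided, all 7 libraries in 3 groups sharing 1 spread) with Benjamini-Hochberg adjustment. The scripts were tested on simulated data first. Members, lists and tests were chosen with earlier results of these data known.

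Named members followed a written rule: the most abundant of each class, in each class and comparison up to 3 called members with the largest difference and a higher group mean of at least 5 FPKM, or the 2 with the smallest unadjusted p where none was called, catalytic subunits, and isoform pairs. Up to 2 called genes with the largest difference were named per list and comparison. Others were named after their values were seen. Other settings tried were median-of-ratios, TPM and quantile scaling, small RNA genes left out before TPM, a pseudocount of 0.1, a minimum of 5 FPKM or none, a fit without the trend or on the compared groups alone, the replicate number as a block, and leaving out each library. Plots used matplotlib 3.10.9 in Python 3.11.15. Markers of other cell types were also counted against OE normal lung. Of 9 alveolar type 2 genes 7 rose, of 8 alveolar type 1 genes 1 rose and 5 fell, of 8 fibroblast genes 3 fell, of 8 macrophage genes 2 rose, of 9 T and B cell genes 9 fell, of 7 adipocyte genes 6 fell and of 2 erythroid genes 2 fell.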

Additional observations from a re-analysis of the deposited data

How the results depend on the processing

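The counts of members called higher depended on the processing, and the counts called lower did so less. Against OE normal lung, 6 called higher became 11 with median-of-ratios scaling, 1 as TPM, 2 as TPM without small RNA genes and 2 with only the groups compared. Against WT lung, 11 called higher became 6 without a filter, 4 as TPM, 4 as TPM without small RNA genes and 5 with only the groups compared, and 5 called lower became 10 as TPM without small RNA genes. With the replicate number as a block, 0 rose and 4 fell against OE normal lung and 1 rose and 4 fell against WT lung. Deviations of same-numbered libraries correlated between -0.029 and 0.034 over all genes tested, which cannot decide whether the numbers pair libraries. In each group the members' FPKM sum was higher in library 2 than in library 1. Leaving out 1 library at a time gave 0 to 39 higher and 4 to 9 lower against OE normal lung, and 1 to 40 higher and 4 to 9 lower against WT lung. The highest counts came without tumor 1. In OE normal against WT lung 0 members were called in every alternative. The falls of Cox4i2, Cox7a1, Cox8b and Ndufa4l2 in both comparisons and the rise of Cox7a2l against WT lung were called in every alternative run. Of the values for single genes and medians under the alternatives, 0 changed direction past a call, 124 were no longer called and 46 became called. Another 2637 stayed on their side of the threshold or within their limit, and 109 moved past it. The limit was the spread, except for chromosome medians, which had a fixed limit. Most chromosome medians moved past theirs when other genes of at least 50 FPKM were used. Low values limit Cox7b2 and Cox8c, and groups of 2 and 3 libraries limit every comparison.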
